A study of Mus musculus with 6 samples.

Results

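The cytosolic ribosome proteins were followed through 86 protein_coding genes, taken by name from the 35275 genes of the deposited table: symbols of Rpl or Rps followed by a digit, together with Rplp0, Rplp1, Rplp2 and Rpsa, and without the S6 kinases (Rps6k), Rps19bp genes and names with -ps. Of these, 52 were counted as large subunit and 34 as small subunit genes, by symbol alone. The level set for testing, 1 FPKM averaged over all libraries, was reached by 82 of the 86 (48 large, 34 small), among 12165 tested genes in all. FPKM is fragments per kilobase of gene, scaled by the reads that a library has in genes. RNA of whole mouse aorta had been sequenced in 6 libraries, 3 from wild-type mice and 3 from EC-Jag1KO mice, in which the Notch ligand gene Jag1 is deleted in endothelial cells. The comparison asks how the vessel wall transcriptome differs when mature endothelium lacks Jagged1. The Cre driver, age and sex of the mice are not given in the labels, nor is it stated that each library is a separate animal. The p-values then cover only the spread between these libraries, which may be technical. Endothelium, smooth muscle and adventitia were measured together, so fewer cells of a type and less RNA per cell cannot be told apart.

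The ribosome is built from a large and a small subunit, each a core of ribosomal RNA with its own set of proteins, nearly all present once per particle. Their mRNAs are short and abundant, and most begin at a C within a run of pyrimidines, the 5′ terminal oligopyrimidine (TOP) tract, through which mTORC1 and LARP1 control their translation. Ribosomal protein genes have also left very many processed pseudogenes in mammalian genomes, which matters for counting reads.

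The TOP tract is the sequence these genes are known for, and it could be read in the promoter windows of RefSeq (GRCm38.p6), which held 77 entries for 65 of the 86 genes. A C followed directly by at least 4 pyrimidines (C or T) began exactly at the annotated start in 14 of the 77 entries (18.2%), against 2.51% of all 32851 entries. The windows below were picked for a small subunit gene of the mTORC1 pathway (Rps6) and for genes that come up again in the comparison. Each runs from 10 bases before the start to 20 after it on the gene's own strand, with the pyrimidine tract from the start in capitals.
Rps6, chr4:86857348-86857377, minus strand: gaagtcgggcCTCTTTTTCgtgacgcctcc
Rpl15, chr14:18270967-18270996, minus strand: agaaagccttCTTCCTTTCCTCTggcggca
Rpl35, chr2:39005112-39005141, minus strand: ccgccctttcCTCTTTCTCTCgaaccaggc
Rpl38, chr11:114668570-114668599, plus strand: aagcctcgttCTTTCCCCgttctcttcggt
Rplp2, chr7:141447641-141447670, plus strand: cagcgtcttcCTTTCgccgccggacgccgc
Rps27, chr3:90213629-90213658, minus strand: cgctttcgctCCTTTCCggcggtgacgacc
The tract length thus ran from 5 bases in Rplp2 to 13 in Rpl15. When the start was allowed to lie elsewhere, a C followed by at least 6 pyrimidines lay within 15 bases before to 20 after the annotated start in 33 of the 77 entries (42.9%), against 16.2% of all. The ETS factor core CCGGAAG, on either strand of the 300 base window, was present in 27 entries (35.1%, against 8.86% of all), and the YY1 core AAGATGG, searched likewise, in 12 (15.6%, against 6.34%). These are letter matches in annotated windows, some of which overlap, and not measured sites.

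Sequencing depth was 23630029, 25130933 and 25705412 reads in genes in wild-type replicates 1 to 3 and 21897973, 19889910 and 25914325 in EC-Jag1KO replicates 1 to 3, the order used for all values that follow. Jag1 itself stood at 9.86, 10.6 and 16.9 FPKM in wild-type and 13.5, 9.42 and 19.6 FPKM in EC-Jag1KO aorta, with overlapping groups (exact two-sided permutation p = 0.7, where 3 against 3 cannot go below 0.1). A value over the whole gene in whole tissue does not check an endothelial deletion. All 8 smooth muscle markers were present in every library, with a summed level of 13957 to 14657 FPKM in wild-type and 11628 to 13877 FPKM in EC-Jag1KO aorta, lowest in EC-Jag1KO replicate 3. Endothelial markers summed to 296 to 426 and 331 to 423 FPKM. Xist was at 26.9 FPKM in wild-type replicate 3 and 40.7 FPKM in EC-Jag1KO replicate 3 and at most 0.0738 FPKM in the other 4, so these 2 libraries stood apart from the rest of their groups in that transcript.

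Ribosomal protein mRNA was a large and, in wild-type aorta, a steady share of the library. The 86 genes together stood at 23790, 26160 and 25796 FPKM in wild-type aorta and at 27384, 30064 and 18796 FPKM in EC-Jag1KO aorta. The means were 25248 ± 1276 and 25415 ± 5886 FPKM (SD, n = 3 each), so the sums were nearly equal and the spread was wider among the EC-Jag1KO libraries. As a share of reads in genes they took 2.28%, 2.54% and 2.48% in wild-type and 2.61%, 2.82% and 1.88% in EC-Jag1KO aorta. The wild-type values lay between those of EC-Jag1KO replicates 1 and 2 above and replicate 3 below. Large subunit genes summed to 12870, 14222 and 13974 FPKM in wild-type and 14957, 16546 and 10273 FPKM in EC-Jag1KO libraries. Small subunit genes summed to 10919, 11938 and 11822 FPKM and to 12427, 13518 and 8523 FPKM. Both subunits therefore had their highest sum in EC-Jag1KO replicate 2 and their lowest in replicate 3, and their ratio stayed within 1.18 to 1.22 in all 6 libraries (1.18, 1.19 and 1.18 in wild-type, 1.20, 1.22 and 1.21 in EC-Jag1KO).

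Single genes covered a wide range. The wild-type means of the 82 tested genes ran from 2.20 to 1019 FPKM, with a median of 277 FPKM and quartiles of 159 and 431 FPKM. The 5 highest were Rplp1, Rpl10, Rps12, Rps27 and Rps15. Rplp1, an acidic protein of the stalk that recruits elongation factors, stood at 996, 914 and 1146 FPKM in wild-type and 1304, 1458 and 580 FPKM in EC-Jag1KO libraries. Rpl10, a large subunit protein added late in assembly, stood at 757 ± 53 FPKM in wild-type (SD, n = 3), and Rps12, Rps27 and Rps15 at 717 ± 27, 714 ± 26 and 680 ± 33 FPKM, values that do not separate beyond their spread. The lowest tested genes were Rps27rt at 2.20 FPKM, Rps4l at 12.8 FPKM and Rpl35 at 23.3 FPKM. Of the exon bases of Rpl35, 66.2% are shared with genes of the opposite strand, Arpc5l and Wdr38 (GENCODE M21). The strand setting of the counts is not given, so its level is uncertain. In the plot of levels the EC-Jag1KO means follow the wild-type order closely.

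**Figure D1:**
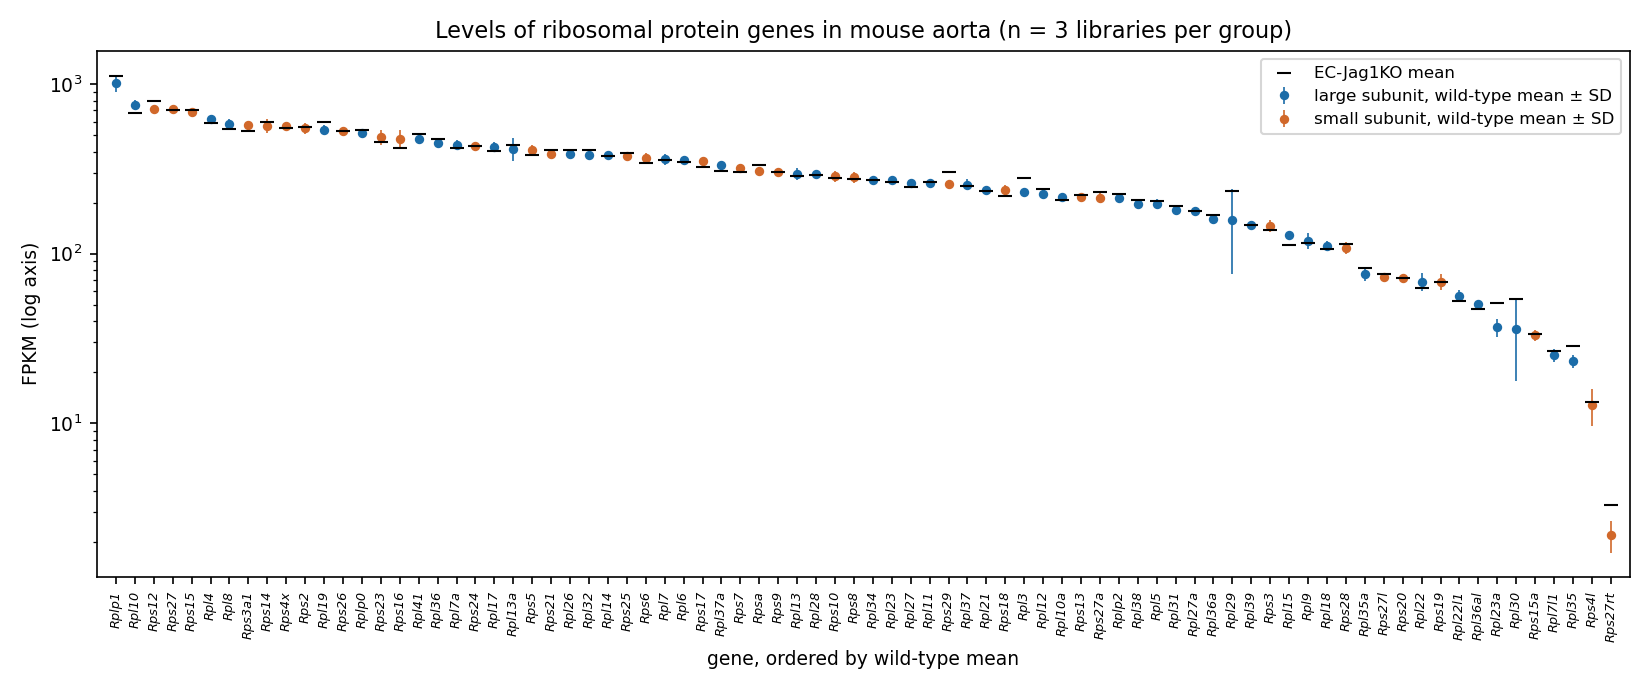
Wild-type mean FPKM (log axis) of 80 tested ribosomal protein genes, ordered by level, with SD over 3 libraries as bars and the EC-Jag1KO mean as a dash. Levels fall from 1019 FPKM for Rplp1 to 2.20 FPKM for Rps27rt, and Rpl29 and Rpl30 have the long bars.

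Part of this range depends on the length used for scaling. For 15 of the 81 genes with a coding transcript in GENCODE M21 the gene length in the table exceeded the median length of those transcripts by more than 2 times. Rps15a, a small subunit protein chosen after its values were seen, was scaled to 5130 bases against a median transcript of 638.5 bases, and its wild-type mean went from 33.0 to 265 FPKM on the transcript length. Rpl30 went likewise from 35.9 to 152 FPKM and Rpl3 from 232 to 533 FPKM. Over the 81 genes the ratio of the upper to the lower quartile was 2.69 on the deposited length and 1.91 on the transcript length. Comparisons between libraries of the same gene do not depend on this choice.

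Against wild-type, no ribosomal protein gene passed the test in EC-Jag1KO aorta. With limma on log2(FPKM + 1) and Benjamini-Hochberg adjustment over all tested genes, 0 of 82 passed an adjusted p of 0.05, as did 0 of all 12165 genes (0%). At an unadjusted p under 0.05 there were again 0 of 82, against 938 of all tested genes (7.71%), and the smallest adjusted p of a ribosomal protein gene was 0.693 (limma). The fitted difference was above 0 for 27 and below 0 for 55 genes, and ran from -0.27 to 0.58 on the log2 scale. Its median was -0.045, -0.040 over the large and -0.052 over the small subunit genes, beside -0.00022 over all tested genes. That median turned to 0.18 without EC-Jag1KO replicate 3, where 19 of the 82 genes had an unadjusted p under 0.05, against 1131 of all tested genes (9.30%), and 0 passed the adjusted threshold. It was -0.17 without replicate 2. With limma's array weights, which weighted EC-Jag1KO replicate 1 by 14.7 and the other libraries by 0.259 to 1.61, it was 0.13, and 1 of the 82 genes, Rpl19, passed, against 1647 of all tested genes (13.5%).

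**Figure D2:**
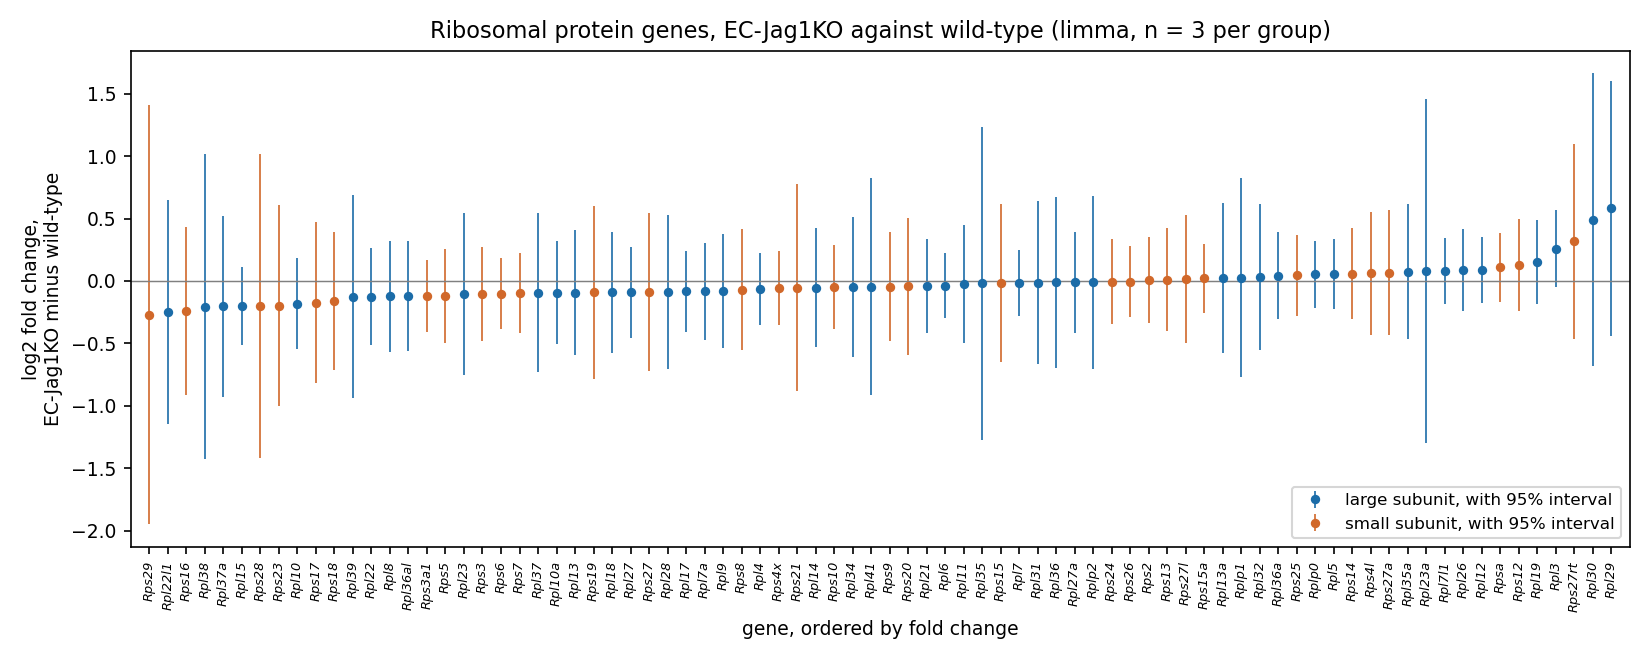
Log2 fold change (EC-Jag1KO minus wild-type) of 80 tested ribosomal protein genes with the 95% interval from limma, n = 3 libraries per group, ordered by value. All 80 intervals include 0, and those of Rps29, Rpl23a, Rpl35 and Rpl38 are among the widest.

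Groups that did not overlap were found for 1 of the 82 genes, Rpl3, against 1651 of all 12165 tested genes (13.6%). Rpl3, a core protein of the large subunit that reaches toward the peptidyl transferase centre (chromosome 15, 80077794 to 80091868, minus strand, mm10), stood at 224, 243 and 227 FPKM in wild-type and 246, 324 and 266 FPKM in EC-Jag1KO libraries. All EC-Jag1KO values were above all wild-type values, by little in replicate 1. The log2 difference was 0.26, with a 95% interval from -0.050 to 0.56 and an adjusted p of 0.693 (limma).

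The other genes of smallest p were also within the spread. Rpl19, a large subunit protein, stood at 506, 576 and 524 FPKM in wild-type and 661, 624 and 509 FPKM in EC-Jag1KO libraries, with a log2 difference of 0.15 (interval -0.18 to 0.49) and an adjusted p of 0.853 by limma. Of the 3 EC-Jag1KO libraries, 2 lay above the wild-type range. Among genes with a lower mean, Rpl15 stood at 128, 133 and 126 FPKM in wild-type and 129, 117 and 93.6 FPKM in EC-Jag1KO libraries, a log2 difference of -0.20 (interval -0.51 to 0.11). Rpl10 stood at 696, 782 and 792 FPKM and at 702, 759 and 554 FPKM, a difference of -0.18. For both genes, as for Rps3a1 (-0.12) and Rps16 (-0.24), EC-Jag1KO replicate 3 was the lowest library.

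The genes of the stalk, of the 5S particle and of proteins with roles outside the ribosome differed in how they were arranged over the libraries. Rplp0, the base of the stalk, stood at 485, 536 and 531 FPKM in wild-type and 564, 534 and 511 FPKM in EC-Jag1KO libraries, with little spread in either group and EC-Jag1KO replicate 3 within the wild-type range. Its partner Rplp2 stood at 197, 217 and 223 FPKM and at 236, 310 and 128 FPKM. Stalk mRNAs thus differed in spread. The EC-Jag1KO mean was 536 ± 26.8 FPKM for Rplp0, 225 ± 91.3 FPKM for Rplp2 and 1114 ± 469 FPKM for Rplp1 (SD, n = 3). For its level, the spread was small in Rplp0 and large in both Rplp1 and Rplp2. Rpl5 and Rpl11 bind 5S ribosomal RNA, and the free particle binds Mdm2, the regulator of p53. Rpl5 stood at 185, 210 and 197 FPKM and at 207, 227 and 182 FPKM, and Rpl11 at 251, 264 and 267 FPKM and at 292, 314 and 184 FPKM. The log2 differences were 0.056 and -0.022, the latter 0.22 without EC-Jag1KO replicate 3. Rps6, the substrate of S6 kinase downstream of mTORC1, stood at 342, 369 and 392 FPKM in wild-type and 371, 348 and 311 FPKM in EC-Jag1KO libraries (log2 difference -0.10), with only EC-Jag1KO replicate 3 outside the wild-type range. Rpsa, also known as a laminin receptor precursor, stood at 298, 312 and 308 FPKM and at 345, 357 and 293 FPKM (0.11).

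Ribosomal proteins made as fusions, or named outside the pattern, were read in the same way. Rps27a, a member by its symbol, encodes ubiquitin fused to a ribosomal protein, Fau a ubiquitin-like protein fused to one, and Rack1, listed under its older symbol Gnb2l1, a scaffold on the small subunit. Rps27a stood at 198, 229 and 213 FPKM in wild-type and 243, 288 and 159 FPKM in EC-Jag1KO libraries, and Fau at 293, 309 and 327 FPKM and at 335, 409 and 218 FPKM. In both genes EC-Jag1KO replicate 2 was highest and replicate 3 lowest. Rack1 was steadier, at 91.5, 104 and 103 FPKM and at 98.8, 108 and 95.9 FPKM. The log2 differences were 0.066 for Rps27a, 0.0052 for Fau and 0.025 for Rack1, and none of the 3 passed.

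Paralogs, here genes whose symbol marks them as relatives of another ribosomal protein gene, were mostly low in aorta. Rpl10l, a testis paralog of Rpl10, had 0 reads in all 6 libraries, which allows at most 0.113 to 0.147 FPKM (3 reads per library, counting error only). Rpl3l, the striated muscle paralog of Rpl3, had 1, 9 and 1 reads in wild-type and 0, 2 and 0 reads in EC-Jag1KO libraries, and Rpl39l had 3, 0 and 0 reads and 4, 6 and 0 reads. Beside them Rpl39 stood at 141, 157 and 146 FPKM in wild-type aorta, so its counterpart Rpl39l was near the limit of detection. Rpl22l1 stood at 52.1, 61.0 and 56.0 FPKM in wild-type and 62.3, 72.4 and 23.2 FPKM in EC-Jag1KO libraries, close to its parent Rpl22 at 59.3, 75.5 and 70.8 FPKM and at 65.3, 74.1 and 50.1 FPKM. Rps27l stood at 72.4, 74.9 and 70.6 FPKM and at 86.0, 91.9 and 50.2 FPKM, far under Rps27 at 699, 698 and 743 FPKM and at 734, 947 and 433 FPKM. Rpl36al was at 50.4, 50.5 and 50.5 FPKM in wild-type against 160, 161 and 162 FPKM for Rpl36a. In EC-Jag1KO libraries they stood at 51.6, 57.1 and 33.6 FPKM and at 181, 190 and 133 FPKM. Rpl7l1 was at 22.9 to 27.5 FPKM in wild-type and 24.0 to 29.0 FPKM in EC-Jag1KO libraries, Rps4l at 9.58 to 15.9 and 10.6 to 16.6 FPKM, and Rps27rt at 1.83 to 2.73 and 1.46 to 5.57 FPKM. The parents Rpl7 and Rps4x were at 333 to 386 and 541 to 590 FPKM in wild-type and at 339 to 373 and 486 to 581 FPKM in EC-Jag1KO libraries. All of these groups overlapped, as did those of Rpl26, the parent of a paralog outside the table (log2 difference 0.085). The remaining untested gene, Rpl24, named because it was the only other one to miss the level for testing, had 3 to 20 reads per library, and 47.0% of its exon bases are shared on the same strand with Gm28037, which was listed at 0 throughout.

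The ribosomal protein genes stood apart from wild-type as a body in single EC-Jag1KO libraries, on different sides. Relative to the wild-type mean of each gene, the median of the 82 log2 values was -0.080, 0.051 and 0.027 in wild-type replicates and 0.11, 0.24 and -0.46 in EC-Jag1KO replicates, while the median over all tested genes lay between -0.011 and 0.024 in every library. In replicate 3 the median was -0.49 over the large and -0.43 over the small subunit genes, and in replicate 2 it was 0.24 and 0.20. EC-Jag1KO replicate 3 was the lowest of the 6 libraries for 69 of the 82 genes (84.1%, against 25.6% of all tested genes), and replicate 2 the highest for 57 (69.5%, against 18.7%). Replicate 1 lay above all wild-type libraries for 54 genes (65.9%, against 29.2%) and below all of them for 1. The median coefficient of variation was 6.36% among wild-type and 24.8% among EC-Jag1KO libraries, beside 10.3% and 13.6% over all tested genes, and it was larger among EC-Jag1KO libraries for 77 of the 82 genes (93.9%, against 60.3%). These counts describe the libraries, since genes of 1 library are not replicates, and no test was made.

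Markers of other cells also differed in these libraries. The 8 lymphocyte markers summed to 40.5 FPKM in EC-Jag1KO replicate 3 and to 4.23 to 10.8 FPKM in the other 5 libraries; Ighm made up 39.3 FPKM of the 40.5, and 5 of the 8, among them the T cell gene Cd3d, were at 0 in some library. Striated muscle markers summed to 41.3 FPKM in EC-Jag1KO replicate 2 and to 10.9 to 26.0 FPKM elsewhere. Actn2, Actc1, Myh6 and Tnnt2 were highest of all libraries there. Myh7 was lowest of the EC-Jag1KO libraries there (1.82 FPKM), and Myl2 was at 0 in every EC-Jag1KO library. The 8 fibroblast markers summed to 2997 FPKM in EC-Jag1KO replicate 2 and to 2368 to 2575 FPKM elsewhere. Gsn made up 1439 FPKM of the 2997. Gsn and Dpt (171 FPKM) were highest of all libraries there, while Pdgfra and Col1a1 were lowest of the EC-Jag1KO libraries (17.7 and 255 FPKM). Summed smooth muscle markers were lowest in EC-Jag1KO replicate 3, as given above, and Acta2 (6173 FPKM) and Tagln (3042 FPKM) made up most of that. Both genes were lowest there, as were Lmod1 and Des, but Myh11, Smtn and Cnn1 were not and Myocd was highest (53.4 FPKM). The 7 erythroid markers, mainly globins, summed to 1407, 677 and 1136 FPKM in wild-type and to 176, 373 and 875 FPKM in EC-Jag1KO libraries, so that EC-Jag1KO replicates 1 and 2, where ribosomal protein levels were high, lay below all wild-type libraries. Of the 4 tested, 3, all of them globin genes, had an unadjusted p under 0.05 (limma), which 7.71% of all tested genes had. White adipocyte markers summed to 1345, 300.6 and 1791 FPKM in wild-type and to 1786, 1458 and 875 FPKM in EC-Jag1KO libraries, and brown adipocyte markers to 266, 38.2 and 472 FPKM and to 355, 227 and 237 FPKM. The part of these cells in the ribosomal protein values was not tested.

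**Figure D3:**
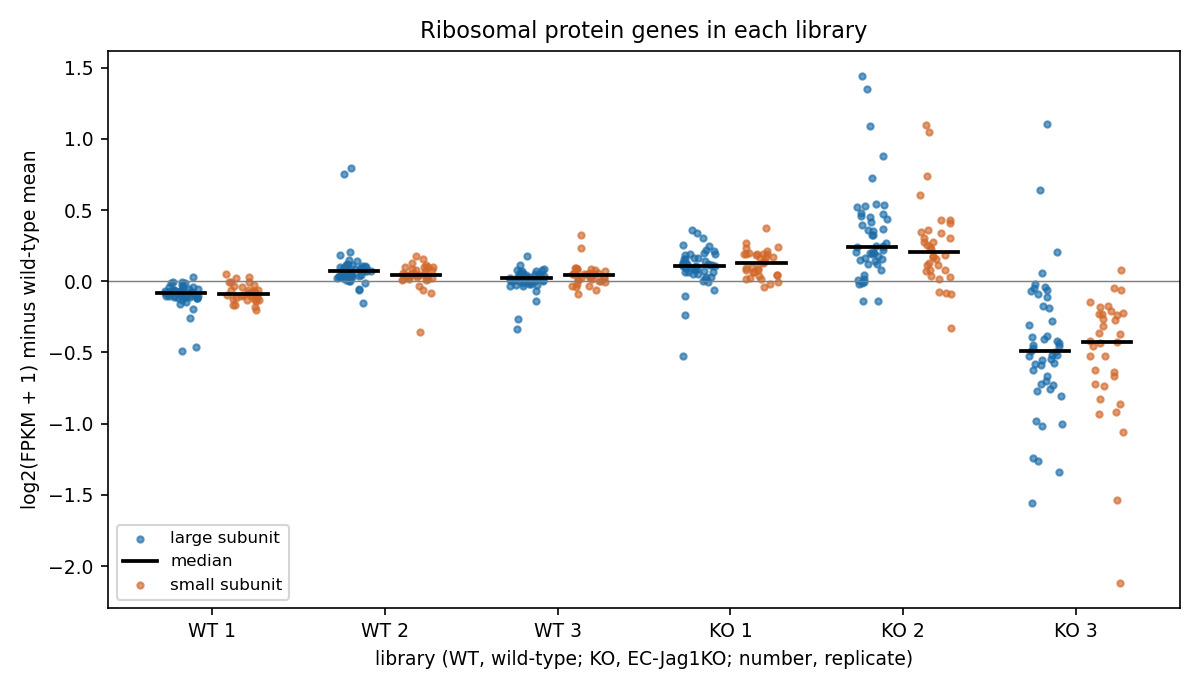
Log2(FPKM + 1) minus the gene's wild-type mean for each tested ribosomal protein gene (points) in each library, large and small subunit apart, with medians as bars. Both subunits sit highest in EC-Jag1KO replicate 2 (medians 0.24 and 0.20) and lowest in EC-Jag1KO replicate 3 (-0.49 and -0.43).

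The contrast between these libraries was not of one size. The ratio of EC-Jag1KO replicate 2 to replicate 3 had a median of 1.62 over the 82 genes (0.994 over all tested genes) and was above 1 for 78 of them. The genes in the rest of this paragraph were chosen after their values were seen. Rps29, a small zinc-binding protein of the small subunit, stood at 257, 261 and 257 FPKM in wild-type and 299, 553 and 58.8 FPKM in EC-Jag1KO libraries, a ratio of 9.39 on 5068 and 703 reads. Rpl23a, at the exit of the nascent peptide tunnel, stood at 35.6, 41.8 and 33.1 FPKM and at 38.4, 101 and 14.7 FPKM (ratio 6.89), and Rpl35, its neighbour there, at 21.4, 25.2 and 23.2 FPKM and at 26.7, 50.6 and 8.57 FPKM (5.91). Rps28 (4.95) and Rpl38 (4.93), the latter at 186, 213 and 192 FPKM and at 229, 327 and 66.3 FPKM, followed. For each of these genes the wild-type libraries were close together, and the EC-Jag1KO libraries lay on both sides of them. Other genes, mostly on the opposite strand, share 62.3% of the exon bases of Rpl23a and 66.2% of those of Rpl35. How such reads were counted is not given. The 4 genes with a ratio under 1 were Rps7 (0.753), Rpl29 (0.855), Rpl6 (0.933) and Rps26 (0.973).

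The contrast was largest in the shortest ribosomal protein genes and alike in the middle and longest groups, and it differed by length in other genes too. In the shortest group, of 255 to 751 bases, the median of 28 ribosomal protein genes was 0.18, 0.35 and -0.65 in EC-Jag1KO replicates 1 to 3, and that of the 481 other tested genes of those lengths was 0.12, 0.22 and -0.29. For the 39 other protein_coding genes of those lengths that averaged 100 FPKM or more it was 0.29, 0.40 and -0.46. So short abundant genes outside the 86 stood on the same sides. Both of these sets still held Fau (736 bases), itself a ribosomal protein gene. The 481 were of any biotype and also held pseudogene copies of ribosomal protein genes, such as Gm12191. From 752 to 1242 bases the 27 ribosomal protein genes were at 0.091, 0.18 and -0.43, the 882 others at 0.072, 0.16 and -0.24, and the 63 abundant ones at 0.048, 0.17 and -0.37. From 1243 to 5130 bases the 27 ribosomal protein genes were still at 0.097, 0.19 and -0.44. Other genes of that length were not: the 8507 others were at 0.0021, -0.00055 and -0.025 and the 321 abundant ones at -0.054, 0.014 and -0.077. The gene lengths in the table exceed those of the transcripts for part of the longest group, as given above. Across the 82 genes, which share each library, the correlation (Pearson) of these values with log2 gene length was -0.26, 0.19 and -0.062 in the wild-type and -0.24, -0.25 and 0.33 in the EC-Jag1KO replicates. Across the other tested genes it was 0.015, 0.15 and -0.16 in wild-type and -0.054, -0.18 and 0.32 in EC-Jag1KO replicates. The part of length, RNA quality and library preparation in the contrast was not tested.

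**Figure D4:**
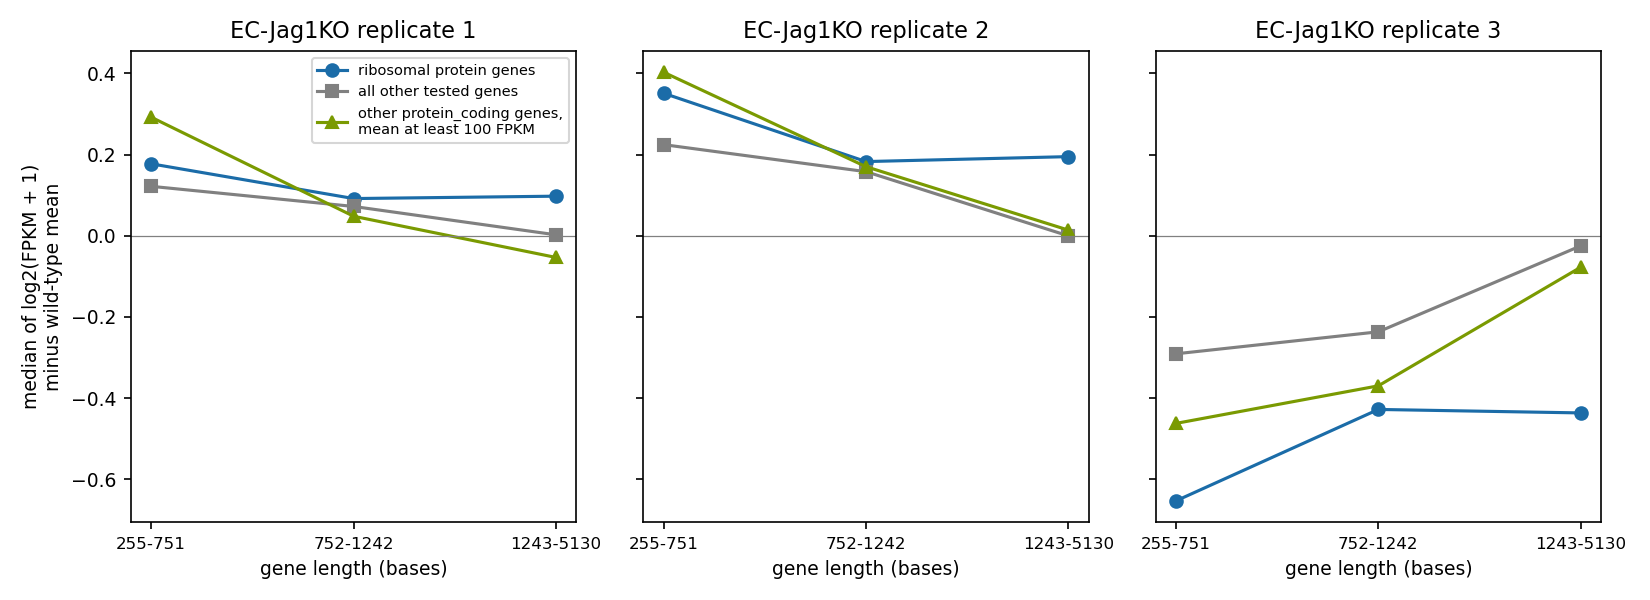
Median of log2(FPKM + 1) minus the wild-type mean in each EC-Jag1KO library, by gene length in bases, for the ribosomal protein genes, all other tested genes and other protein_coding genes averaging 100 FPKM or more. In the longest group the ribosomal protein genes stay at 0.097, 0.19 and -0.44 while the other 2 sets lie near 0.

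Genes with a TOP tract at the annotated start stood at 0.12, 0.41 and -0.61 (14 genes, median length 940.5 bases) in EC-Jag1KO replicates 1 to 3. The 47 tested genes with a promoter entry but no such tract stood at 0.12, 0.21 and -0.44 (975 bases). The 21 without a promoter entry stood at 0.090, 0.27 and -0.43 (861 bases). This split rests on the annotated start alone, and tracts lying near it, as given above, were not counted. It therefore does not separate TOP mRNAs from others. Of the tested elongation factors and TOP mRNAs outside the ribosome, most were higher in EC-Jag1KO replicate 2 than in replicate 3, some by little. Only Eef1a1, Eef2, Pabpc1 and Nap1l1 were lower in replicate 2 than in replicate 3. Eef1a1, which delivers aminoacyl-tRNA to the ribosome, stood at 2577, 2857 and 2851 FPKM in wild-type and 2714, 2427 and 2958 FPKM in EC-Jag1KO libraries. Eef2, the translocation factor, stood at 647, 727 and 744 FPKM and at 648, 596 and 754 FPKM. Both genes were lowest in EC-Jag1KO replicate 2 among the EC-Jag1KO libraries and highest in replicate 3, while Tpt1, a further TOP mRNA, stood at 953, 1090 and 1082 FPKM and at 1135, 1160 and 906 FPKM. Eef1a1, Eef2, Pabpc1, Nap1l1 and Tpt1 were named after their values were seen.

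Some of the genes for which EC-Jag1KO replicate 3 was not the lowest library have near-identical pseudogene copies with reads in these libraries. Having such a copy does not set these genes apart. In the table, 82 of the 86 genes have at least 1 pseudogene with at least 85% identity to one of their transcripts, 921 in all, with a median of 7 and up to 64 per gene. The 4 pairs below were chosen after their values were seen, as pairs whose copy was low in the libraries where the gene was highest. A further pair whose copy varied between libraries, Rpl15 and Rpl15-ps2, did not show this and is left out (Pearson correlation of their FPKM -0.13). Each line shows 30 bases from GENCODE M21 transcripts with the base that differs in capitals, and the alignments hold 1 to 3 mismatches in all.
Rpl30: gtgctgggctacaaGcagactctgaagatg
Gm12191: gtgctgggctacaaAcagactctgaagatg
Rpl3: ggcttcctgcctcgCaagcgcagcagccgg
Rpl3-ps1: ggcttcctgcctcgAaagcgcagcagccgg
Rps7: gagcgccaagatcgTgaagcccaatggcga
Gm6472: gagcgccaagatcgGgaagcccaatggcga
Rpl29: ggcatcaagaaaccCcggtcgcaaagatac
Gm8210: ggcatcaagaaaccAcggtcgcaaagatac
The differences shown are G96A for Rpl30, C58A for Rpl3, T26G for Rps7 and C72A for Rpl29, counted from the first aligned base of the gene, with the gene's base first. They are single differences in alignments of 348, 1210, 582 and 483 bases. A read inside the aligned stretch that covers no differing base matches both loci.

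Rpl30, an RNA-binding protein of the large subunit, stood at 23.4, 56.8 and 27.5 FPKM in wild-type and 22.9, 86.5 and 52.4 FPKM in EC-Jag1KO libraries. Its copy Gm12191, on chromosome 11 (49678710 to 49679057, mm10), stood at 144, 88.7 and 169.7 FPKM and at 176, 3.90 and 2.55 FPKM. The libraries with high Rpl30 were those with low Gm12191, in both groups, which is the pattern the pair was chosen for. In RPM, the gene's reads scaled to the reads in genes of the library with no division by length, which can be added over the pair, Rpl30 ran from 55.1 to 209, a high-to-low ratio of 3.78, and the sum of the pair from 107 to 210, a ratio of 1.97. The log2 difference of Rpl30 was 0.49, with an interval from -0.68 to 1.66.

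Rpl29, a basic protein also known for binding heparin, stood at 106, 254 and 115 FPKM in wild-type and 124, 269 and 314 FPKM in EC-Jag1KO libraries, the largest log2 difference of the 82 genes at 0.58 (interval -0.44 to 1.60, adjusted p = 0.806 by limma). Gm8210 stood at 12.0, 7.50 and 13.0 FPKM and at 14.4, 6.97 and 0 FPKM. Adding the copy moved the high-to-low ratio little, from 2.97 to 2.77. The gene has 53 pseudogene copies in the table, 20 of them with at least 95% identity. Rpl29 and Rpl30 were high in the same 3 libraries, wild-type replicate 2 and EC-Jag1KO replicates 2 and 3.

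Rps7, a small subunit protein needed early in assembly, stood at 325, 337 and 300.4 FPKM in wild-type and 312, 255 and 338 FPKM in EC-Jag1KO libraries. Gm6472 on chromosome X stood at 0.975, 1.59 and 43.6 FPKM and at 46.2, 60.0 and 1.01 FPKM. It was high in the 3 libraries where Rps7 was low, again the pattern of the choice. The high-to-low ratio of Rps7 was 1.33 and that of the pair 1.16. Rpl3-ps1, also on chromosome X, stood at 15.2, 19.0 and 16.3 FPKM and at 17.7, 2.33 and 2.42 FPKM. With it added, Rpl3 still did not overlap between groups: the pair summed to 439, 480 and 446 RPM in wild-type and 483, 610 and 503 RPM in EC-Jag1KO libraries. How reads matching both loci were assigned is not given in the sources used here, and the part of the copies in these differences was not tested.

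**Figure D5:**
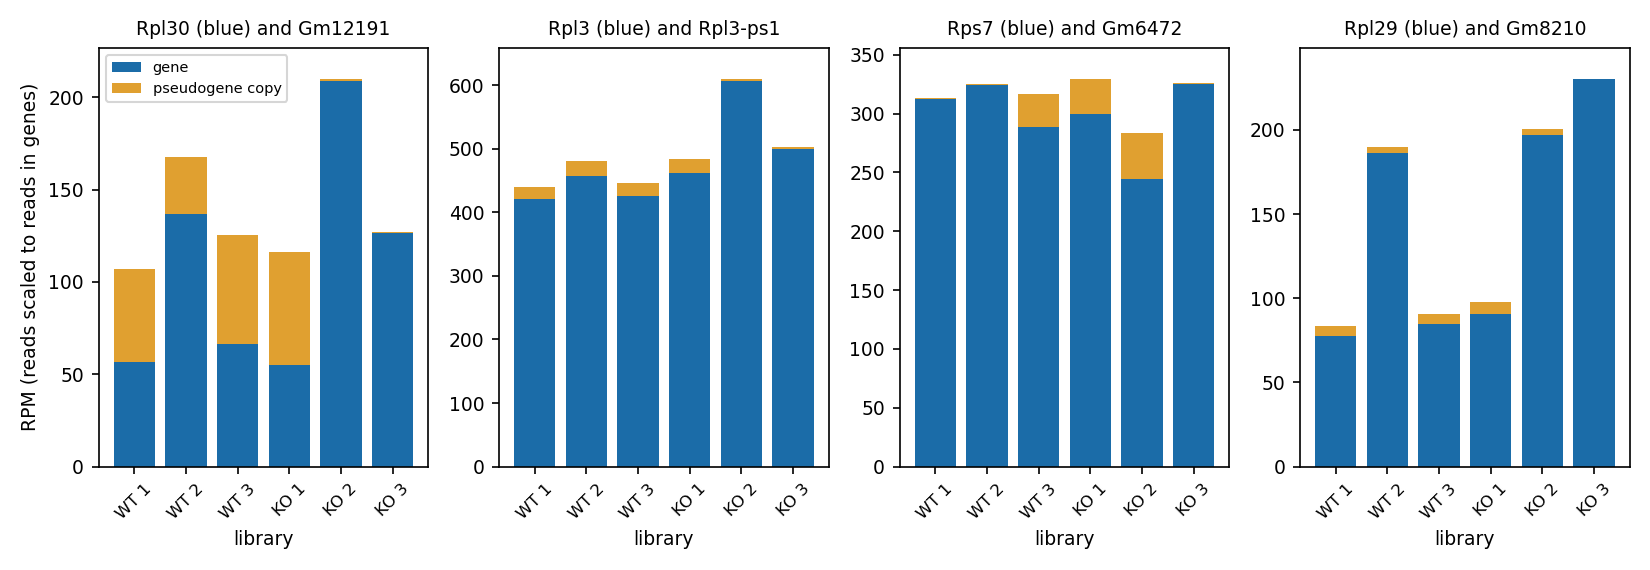
RPM (reads of a gene scaled to the reads in genes of the library) for 4 ribosomal protein genes (blue) and a near-identical pseudogene copy (orange), stacked, in wild-type (WT) and EC-Jag1KO (KO) replicates 1 to 3. The Rpl30 bars run from 55.1 to 209 and the stacked totals from 107 to 210, and the copies of Rpl30 and Rpl3 are nearly lacking in KO 2 and KO 3.

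The other genes of translation and ribosome assembly were read from lists that include factors acting on the ribosome. No gene of them passed an adjusted p of 0.05. Of 16 tested elongation factors and TOP partners, 4 were higher and 12 lower in mean log2 level, with a median of -0.056. Their smallest p values belonged to Hnrnpa1, an RNA-binding protein (106 ± 8.0 FPKM in wild-type, 95.9 ± 5.9 FPKM in EC-Jag1KO, SD, n = 3 each), and Eef1g, a subunit of the elongation factor 1 complex (154 ± 8.1 and 141 ± 18.1 FPKM). Of 34 initiation factors 18 were higher and 16 lower, with a median of 0.011. Eif2s2, the beta subunit of eIF2, stood at 18.4, 20.3 and 18.7 FPKM in wild-type and 22.3, 22.9 and 20.7 FPKM in EC-Jag1KO libraries, without overlap.

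Of 21 genes of mTORC1 and TOP control 11 were higher and 10 lower, with a median of 0.015, and 3 had an unadjusted p under 0.05, which 7.71% of all tested genes had. Larp4, a La-related protein that binds poly(A) tails and stabilises mRNA, stood at 6.03, 5.56 and 6.54 FPKM in wild-type and 9.49, 7.56 and 9.87 FPKM in EC-Jag1KO libraries. Its log2 difference was 0.50 with an adjusted p of 0.402 by limma. Deptor, an inhibitor within the mTOR complexes, stood at 4.11, 2.26 and 3.36 FPKM and at 6.98, 4.79 and 6.05 FPKM (log2 difference 0.72, adjusted p = 0.443 by limma). Neither group overlapped in these 2 genes, a pattern that 13.6% of all tested genes shared. Of 63 ribosome biogenesis genes 39 were higher and 24 lower, with a median of 0.0092 and 3 at an unadjusted p under 0.05 (7.71% of all tested genes). Nmd3, the export adaptor of the large subunit, stood at 10.6 ± 1.0 and 13.1 ± 0.84 FPKM, and Bop1, of the complex that processes large subunit RNA, at 15.7 ± 1.4 and 21.5 ± 4.4 FPKM. Of 12 chaperone and 5S particle genes 9 were higher and 3 lower, with a median of 0.033. An unadjusted p under 0.05, which 7.71% of all tested genes had, was found for 2 of them, Znhit6 (3.89 ± 0.19 and 5.06 ± 0.33 FPKM), a factor of box C/D snoRNP assembly, and Cdkn1a (19.9 ± 1.1 and 25.3 ± 4.3 FPKM), the p21 target of p53.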

How the data were processed

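The authors deposited 1 table of FPKM values for 35275 genes in 6 mouse aorta libraries, with gene coordinates, length and biotype per the file headers. The submitters' processing notes list STAR, HTSeq, edgeR and the build mm10 without versions or roles. The annotation release, the strand setting and how multi-mapped reads were handled were not given in the sources used here. Antisense or overlapping genes and near-identical copies are therefore uncertain, and 22 of the 86 genes overlap another gene. Coordinates are those of the table; all 86 identifiers are in GENCODE M21, and 51 have the same position there. Dividing each deposited value by the value of a single read gave whole numbers, within 0.05, for 211650 of 211650 values (100%), and 19889910 to 25914325 reads in genes per library. Counting error is thus small for abundant genes and limits those with a few reads.

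Values were analysed as log2(FPKM + 1), a scale on which low genes change less. limma 3.58.1 (R 4.3.3) was run on genes averaging 1 FPKM or more, with a term for genotype alone, empirical Bayes moderation with a trend on mean level, and two-sided p-values adjusted by Benjamini-Hochberg over all tested genes at 0.05. The test was checked on simulated data. Libraries differed well beyond sampling noise (chi-square per degree of freedom 24.4 to 73.7), so none was entered more than once. Pseudogene copies were found with BLAST 2.17.0, with Python 3.11.15, and plots were made with matplotlib 3.10.9. Promoter windows are RefSeq's; gene lists matched 237 of 241 symbols (Snhg8, Polr1f, Riok2 and Ahsp were unmatched).

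The members and lists were chosen with earlier results of these data known. The rule for naming genes took the 6 of smallest p in each direction, the 5 highest and 3 lowest in wild-type level, stalk, ubiquitin fusion, 5S and paralog genes with their parents, and 2 genes per list; other members named were chosen after their values were seen. A few genes that the rule names are not reported here. Alternatives covered the pseudocount, filter, scaling, variance model, array weights, the replicate number as a block, a loess trend with gene length (span 0.5), and leave-one-out fits. Chosen after seeing the data were fits leaving out EC-Jag1KO replicates 2 and 3 together, or the 2 libraries with Xist, and voom on recovered reads.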

Additional observations from a re-analysis of the deposited data

How the results depend on the processing

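With 3 libraries per group the design has little power, and FPKM carry the length given in the table. The 0 ribosomal protein genes past the adjusted threshold became 1 with array weights (1647 of all tested genes) and stayed 0 under every other alternative run; over all tested genes the count was 2 without the 2 libraries with Xist and 0 to 4 with each library left out (4 without EC-Jag1KO replicate 1). At an unadjusted p under 0.05, all tested genes numbered 1436 without a filter, 612 with a filter at 5 FPKM, 4215 with array weights and 594 to 1437 with each library left out. Of the 82 ribosomal protein genes, 9 reached this with array weights, where 4215 of all tested genes did. With each library left out the number ran from 0 to 19. It was 19 without EC-Jag1KO replicate 3 (9.30% of all tested genes), 2 without EC-Jag1KO replicate 1 and 1 without wild-type replicate 2. Without the Xist libraries it was 7. The share of all tested genes in that fit is not given here, so the 7 are not read as a result about these genes. The median log2 difference of the ribosomal protein genes was 0.11 without EC-Jag1KO replicates 2 and 3 and 0.20 without the Xist libraries. It was -0.019 after quantile normalization, -0.052 after removal of a length trend and -0.044 with voom. Replicate numbers did not pair the libraries (correlations of same-numbered libraries 0.055, 0.051 and -0.050), and the replicate block gave 0 genes, 842 at an unadjusted p under 0.05 and the same medians.

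Over the 45 named genes 717 differences were recomputed, and 654 kept their direction and side of the threshold. With array weights 8 passed it (Bop1, Cdkn1a, Deptor, Eif2s2, Larp4, Nmd3, Rpl19 and Znhit6), as 13.5% of all tested genes did. These 8 had been named for a small p in the main fit, so their number is no result about the named genes. A further 55 differences changed sign. Scaling turned Rpl7 to 0.046 (quantile), Fau to -0.015 and Rps27l to -0.0026 (median centring) and Rplp2 to 0.0035 (nuclear protein_coding scaling). Array weights, which rest mainly on EC-Jag1KO replicate 1, turned Rpl11 to 0.17, Rpl22l1 to 0.15, Rpl29 to -0.12, Rpl30 to -0.38, Rpl35 to 0.22, Rpl36al to 0.025, Rpl39 to 0.20, Rpl7 to 0.076, Rplp2 to 0.18, Rps15 to 0.20, Rps16 to 0.056, Rps27 to 0.052, Rps3a1 to 0.0016, Rps4x to 0.038 and Rps6 to 0.044. With each library left out in turn, Rpl7 ran from -0.071 to 0.034, Fau from -0.19 to 0.26, Rps27l from -0.14 to 0.29, Rplp2 from -0.29 to 0.35, Rpl11 from -0.17 to 0.22, Rpl22l1 from -0.55 to 0.25, Rpl35 from -0.57 to 0.64, Rpl36al from -0.27 to 0.10, Rpl39 from -0.41 to 0.32, Rps15 from -0.24 to 0.31, Rps16 from -0.45 to 0.098, Rps27 from -0.34 to 0.22, Rps4x from -0.10 to 0.027, Gnb2l1 from -0.031 to 0.061, Rplp1 from -0.22 to 0.44, Rps4l from -0.12 to 0.22, Rpl36a from -0.056 to 0.20, Rpl5 from -0.019 to 0.14, Rps27a from -0.12 to 0.31, Rps27rt from -0.049 to 0.66, Rpl22 from -0.25 to 0.029 and Jag1 from -0.091 to 0.40. The cause of these changes was not tested.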
